A study of Sus scrofa with 6 samples.

Results

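The red cell genes described here are 4 transcripts of the erythroid lineage, HBB, HBE1, AHSP and ALAS2, read in heart muscle of young pigs. They were picked from earlier results of these same arrays as a readout of blood content that varies between arrays, so their signals and their group differences are given as a description, with no test. All probe sets whose single gene symbol in the platform annotation was one of the 4 names were taken. Each gene had 1, which gave 4 probe sets of 23999 once the array's own controls were set aside. The array names 6765 genes in this way. The study asked how gene expression of the left ventricle (LV) differs in a porcine model of diastolic heart failure. Large White piglets had received a single injection of phosphate-buffered saline (PBS) or of doxorubicin (Dox), an anthracycline with known cardiac toxicity. The labels give 2.0 mg/kg of Dox at 8 days of age and LV free wall collected 3 weeks later, at 28 days, whereas the methods state a dose range and somewhat different ages. Each group held 3 animals, and each RNA was hybridised to its own Affymetrix Porcine Genome Array, so n = 3 per group throughout.

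Haemoglobin is a tetramer of alpha-like and beta-like globin chains, each holding a haem group, and it fills the mature red cell. Its transcripts are made in erythroblasts of the bone marrow, and reticulocytes, the youngest circulating red cells, still carry some of this RNA as they enter the blood. A myocardial sample holds the blood that was in its vessels, so erythroid transcripts in LV RNA can come from that blood. In bulk RNA of this kind, fewer cells of a type and less RNA per cell cannot be told apart. The treatment protocol and the methods used here do not say whether the tissue was rinsed of blood.

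Values are MAS5 signals, the Affymetrix measure of probe set brightness on a linear scale, in arbitrary units. Signals of different probe sets cannot be set against each other, since each has its own probes. As a reference for dim probe sets, the brightest of 17 Tag probe sets, which carry synthetic sequences, was taken on each array. It lay between 2.5 and 6.3, and a signal at or below it is called in the Tag range. The 2% trimmed mean was 100 on every array, as the authors had scaled it. The median correlation of an array with the other arrays ran from 0.885 for Dox replicate 3 to 0.955 for Dox replicate 1. The summed signals of 9 cardiomyocyte markers were 40840 to 49400 in the PBS group and 49370 to 64060 in the Dox group, and all 9 lay above the Tag range on every array.

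HBB encodes the adult beta-globin chain. Its signals were 154.5, 125.9 and 121.8 in PBS replicates 1, 2 and 3, and 109, 84.6 and 130.5 in Dox replicates 1, 2 and 3. The groups overlapped, with Dox replicate 3 above 2 of the PBS arrays. The mean was 134 ± 17.8 (SD, n = 3) in the PBS group and 108 ± 23.0 (SD, n = 3) in the Dox group. On the log2 scale the difference, Dox minus PBS, was -0.33 (SE 0.24), or a geometric mean 1.25-fold higher in PBS. Each SE of a log2 difference given here comes from limma, which draws a gene's spread toward that of probe sets of similar signal. It is thus not the SE of the gene's own values alone. The pooled within-group SD of the log2 signal, without such moderation, was 0.26 for HBB, 1.58 for ALAS2, 1.815 for AHSP and 1.825 for HBE1. The highest of the 6 arrays was 1.83-fold above the lowest, and every array lay above the Tag range.

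ALAS2 encodes the erythroid form of 5-aminolevulinate synthase, the first enzyme of haem synthesis. Its signals were 437.1, 49.9 and 58.4 in PBS replicates 1 to 3, and 108, 18.1 and 83.4 in Dox replicates 1 to 3. PBS replicate 1 stood 4.05-fold above the next array, while the other PBS arrays lay inside the range of the Dox arrays. The PBS mean of 182 ± 221 (SD, n = 3) was therefore set largely by 1 animal, and its SD exceeded the mean. The Dox mean was 69.8 ± 46.5 (SD, n = 3), and the log2 difference was -0.99 (SE 0.91). All 6 arrays were above the Tag range, and they spanned a 24.2-fold range.

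AHSP encodes the alpha haemoglobin stabilising protein, a chaperone that binds free alpha-globin chains in erythroid cells. Its signals were 92, 17.5 and 6.6 in PBS replicates 1 to 3, and 34.1, 3.4 and 16.5 in Dox replicates 1 to 3. The order alternated between the groups, from PBS replicate 1 through Dox replicate 1, PBS replicate 2, Dox replicate 3 and PBS replicate 3 down to Dox replicate 2. The means were 38.7 ± 46.5 (SD, n = 3) for PBS and 18.0 ± 15.4 (SD, n = 3) for Dox, with a log2 difference of -0.82 (SE 1.06). The arrays spanned 27.1-fold, and Dox replicate 2 was in the Tag range.

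HBE1 encodes the embryonic epsilon-globin chain, which is silenced as definitive erythropoiesis takes over. In the reference pig annotation it lies on the same chromosome as HBB, with 2 listed genes between them. Its signals were 11.1, 1.2 and 5.1 in PBS replicates 1 to 3, and 6.2, 0.4 and 2.3 in Dox replicates 1 to 3. These were dim values, in the Tag range on 3 of the 6 arrays, namely PBS replicate 2 and Dox replicates 2 and 3. The means were 5.8 ± 4.99 (SD, n = 3) for PBS and 2.97 ± 2.96 (SD, n = 3) for Dox. The log2 difference of -1.19 (SE 1.15) and the 27.8-fold range thus rest partly on signals that could not be told from the synthetic controls. Beta-like globin transcripts resemble each other in sequence, and whether the HBE1 and HBB probes bind each other's transcripts was not tested.

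**Figure D1:**
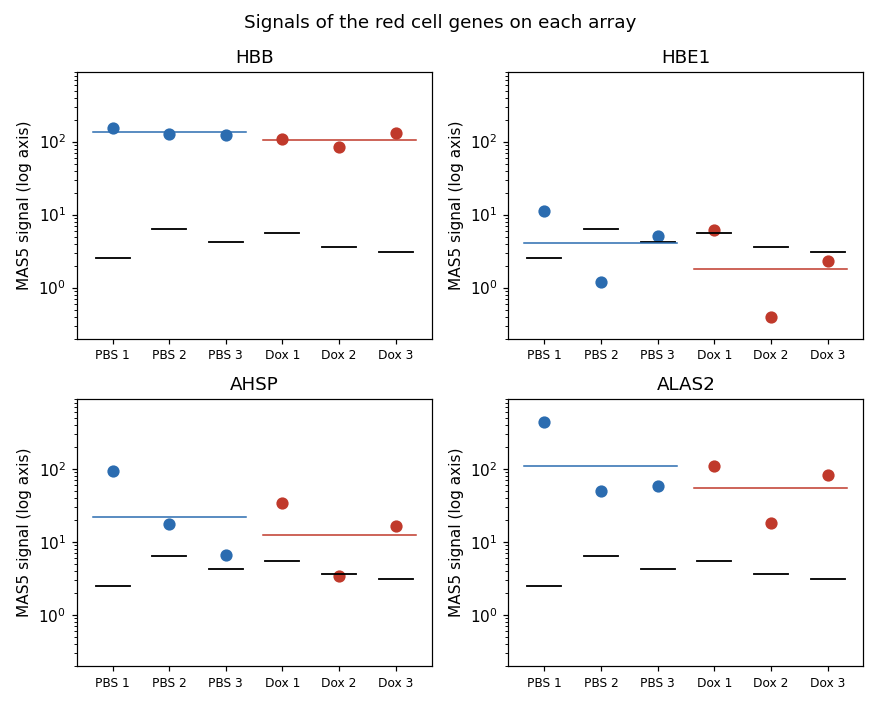
MAS5 signal (log axis, arbitrary units) of each red cell gene on the 3 PBS arrays (blue) and the 3 Dox arrays (red), with coloured lines at the geometric mean of each group and short black lines at the brightest Tag probe set of each array. The groups overlap in all 4 panels, HBB stays between 84.6 and 154.5, and HBE1 falls to or below the black line on 3 arrays.

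All 4 log2 differences were below 0, and the groups overlapped for each gene. Thus 0 of 4 genes had groups that did not overlap, against 16.3% of all probe sets. At an adjusted p of at most 0.05 by limma with a fold of at least 2, the threshold of the study's methods, 0% of the 23999 probe sets were called. The smallest adjusted p was 0.428. Before adjustment, limma gave 2290 probe sets with p at or under 0.05, 1356 of them with at least a 2-fold difference. The methods' t-test, an alternative, also called 0 after adjustment.

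Dispersion between arrays separated HBB from the other red cell genes. The SD of the log2 signal over all 6 arrays was 0.29 for HBB, 1.51 for ALAS2, 1.69 for AHSP and 1.76 for HBE1. The median over all probe sets was 0.58, and over the 11999 probe sets of higher mean signal it was 0.37. Of all probe sets, 18.1% had a smaller SD than HBB, 88.5% a smaller SD than ALAS2, 92.7% a smaller SD than AHSP and 94.3% a smaller SD than HBE1. The genes were picked for varying between arrays, so the high values of AHSP, ALAS2 and HBE1 are no finding, and HBB, picked with them, varied less than the median probe set.

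The same pair of arrays formed the extremes for every red cell gene: PBS replicate 1 was highest and Dox replicate 2 lowest. Of the 11999 brighter probe sets, 5.55% had this arrangement, and of all probe sets 4.90%. PBS replicate 1 exceeded the geometric mean of the rest of its group 8.56-fold for AHSP, 8.10-fold for ALAS2 and 1.25-fold for HBB, and at least 1.96-fold for HBE1, with PBS replicate 2 raised to its Tag level. Dox replicate 2 was below the rest of its group 5.24-fold for ALAS2 and 1.41-fold for HBB, and at least 6.59-fold for AHSP, whose signal there was in the Tag range. No fold is given for HBE1, which was in the Tag range on 2 of the 3 Dox arrays. HBE1 was in that range on PBS replicate 2 too, so which of these arrays was truly lowest could not be told. Dox replicate 1 came next after PBS replicate 1 for ALAS2, AHSP and HBE1, but was next to lowest for HBB. Beyond this, the 4 arrays in between kept no common order. PBS replicate 3, for instance, was 0.92 above the gene's own log2 mean for HBE1 and 1.32 below it for AHSP (log2 deviations of 0.92 and -1.32).

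**Figure D2:**
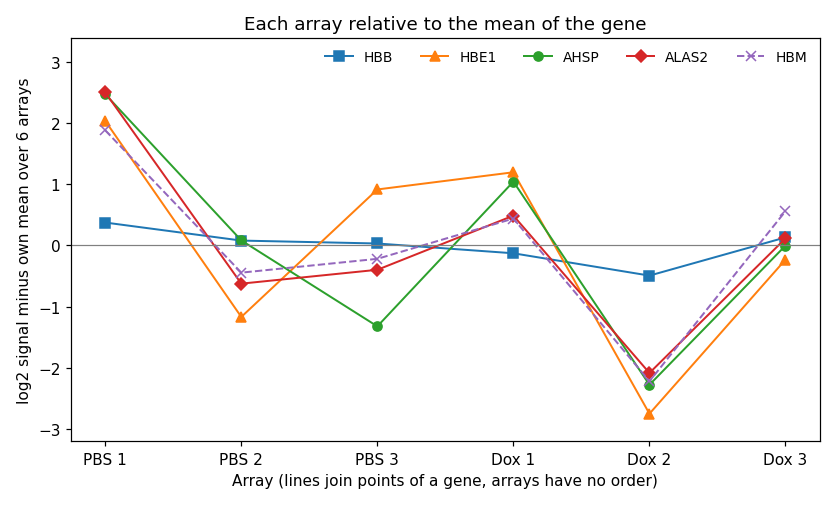
Log2 signal minus the gene's own mean over the 6 arrays, for the red cell genes and for HBM, a globin that was not among them; lines join the points of a gene, and the arrays have no order. All 5 genes peak at PBS replicate 1 and are lowest at Dox replicate 2, HBB with the smallest amplitude (0.38 and -0.49).

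The group differences depended on these arrays. With 1 array left out at a time, the log2 difference ranged from -0.47 to -0.16 for HBB, from -2.09 to -0.11 for HBE1, from -1.69 to 0.21 for AHSP and from -1.55 to 0.02 for ALAS2. AHSP turned above 0 without PBS replicate 1 (0.21) and without Dox replicate 2 (0.11), and ALAS2 turned above 0 without PBS replicate 1 (0.02). HBE1 moved to -0.47 without PBS replicate 1 and to -0.11 without Dox replicate 2, and ALAS2 moved to -0.19 without Dox replicate 2. With both arrays left out, a setting chosen after the values were seen, the difference was -0.05 for HBB, 0.61 for HBE1, 1.14 for AHSP and 0.81 for ALAS2. Leaving out the highest PBS and the lowest Dox array raises any difference by construction, so nothing is read from the sign of these values.

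**Figure D3:**
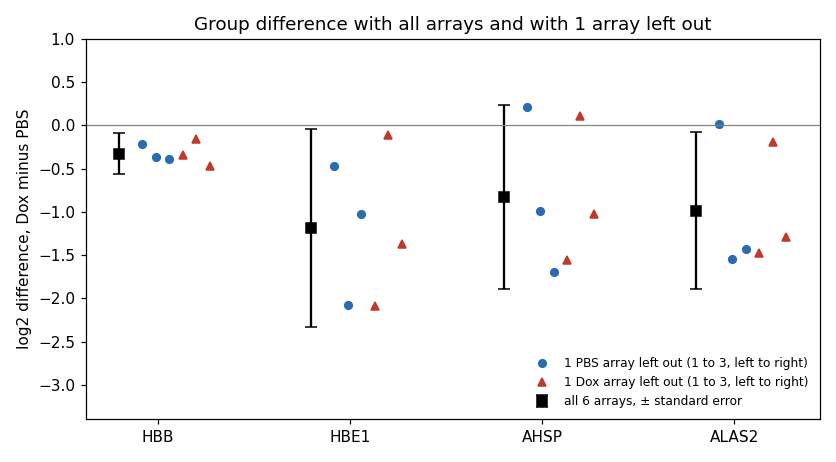
Log2 difference, Dox minus PBS, of each red cell gene with all 6 arrays (black squares, bars of ± 1 moderated standard error by limma). Blue circles leave out 1 PBS array, and red triangles leave out 1 Dox array. HBB stays between -0.47 and -0.16, HBE1 stays below 0, and AHSP and ALAS2 reach 0.21 and 0.02.

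Pairs of red cell genes were correlated over the 6 arrays, as a description, since all points share the same arrays and their scaling. AHSP and ALAS2 had the highest Pearson r (0.938, Spearman rho 0.829), followed by HBE1 and ALAS2 (r 0.887, rho 0.943). HBE1 was in the Tag range on 3 of the 6 arrays. Each r and rho of HBE1 thus rests partly on signals that could not be told from the synthetic controls. HBB was correlated with ALAS2 at r 0.843 (rho 0.6), with AHSP at r 0.767 (rho 0.6) and with HBE1 at r 0.732 (rho 0.486). PBS replicate 1 and Dox replicate 2 were the 2 arrays farthest from the median of the first gene in every pair. Without them, over 4 arrays, r was 0.658 for AHSP with ALAS2 and 0.608 for HBE1 with ALAS2. It fell below 0 for HBB with ALAS2 (-0.579), AHSP (-0.501) and HBE1 (-0.731). These arrays are the extremes of both genes of each pair, so a lower r follows in part from the choice. Without PBS replicate 1 alone, r of HBB was 0.731 with ALAS2, 0.581 with AHSP and 0.585 with HBE1. Over deviations from the group means it was 0.845, 0.791 and 0.687.

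The 10 genes whose log2 signal was most like HBB, among 6115 probe sets with 1 symbol and a mean signal above the median, were GLRX (r 0.992), PDSS1 (0.988), NOTCH4 (0.977), DNAJA1 (0.976), RAN (0.964), EMP3 (0.963), TRA2B (0.956), NDUFV2 (0.954), NAP1L5 (0.954) and PIGC (0.953). None of these is a gene of the erythroid lists used here. Over 6 arrays such values are common: 158 probe sets (2.58%) were more like HBB than ALAS2 was, 307 more than AHSP and 391 (6.39%) more than HBE1. Ranked against ALAS2 instead, a choice made after the values were seen, HBM (r 0.973) came next after GNG10 (0.975) and RAP1GDS1 (0.973) among the 6115.

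Genes of the same biology that the choice of members did not use were read from 6 lists, at the brightest probe set of each gene. The p-values below come from limma over all 23999 probe sets, of which 3.62% were higher and 5.92% lower in Dox at an unadjusted p of at most 0.05, and whose median log2 difference was -0.10. No gene of any list was called.

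Of 12 other globins, 3 were measured, and their median log2 difference was -0.45. HBM, which encodes the alpha-like mu-globin, had signals of 115.6, 23 and 26.9 in PBS replicates 1 to 3, and 42.5, 6.7 and 46.2 in Dox replicates 1 to 3. It shared the extremes of the red cell genes, and the groups overlapped. Its log2 difference was -0.81 (SE 0.85, adjusted p = 0.748 by limma), and 0.09 without Dox replicate 2. Its correlation with ALAS2 remained at r 0.918 without the 2 extreme arrays. CYGB and NGB, globins of fibroblast-like cells and of neurons, had differences of -0.45 (adjusted p = 0.645 by limma) and 0.11 (adjusted p = 0.940 by limma).

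**Figure D4:**
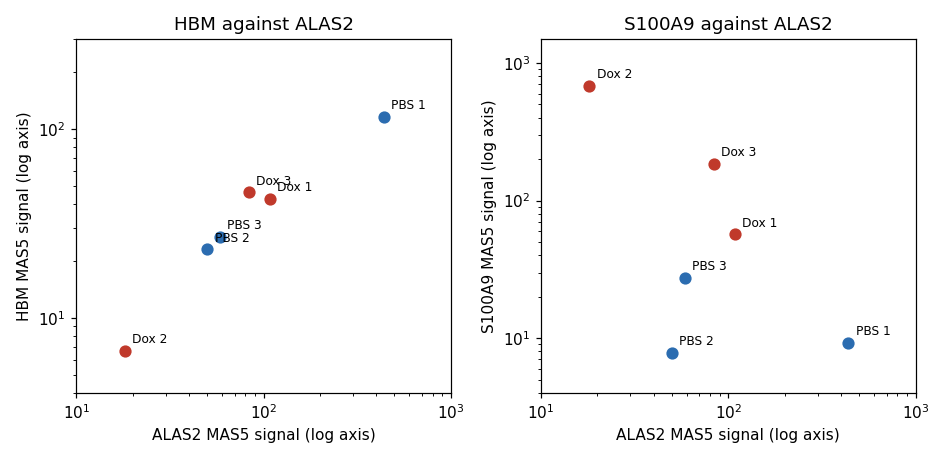
MAS5 signals of HBM (left) and S100A9 (right) against ALAS2 on the 6 arrays, all axes logarithmic, with PBS arrays in blue and Dox arrays in red. HBM rises with ALAS2 over all arrays (r 0.973), while S100A9 is highest on Dox replicate 2, where ALAS2 is lowest.

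In haem synthesis, the pathway that ALAS2 opens in erythroid cells, 10 of 18 genes were measured, 5 above and 5 below 0, with a median of 0.03. At an unadjusted p of at most 0.05, 1 was higher and 1 lower. The higher gene was ALAD, the enzyme after ALAS2, at 143.6 ± 10.5 in PBS and 273 ± 93.5 in Dox (SD, n = 3). Its groups did not overlap, and its log2 difference was 0.86 (SE 0.28, adjusted p = 0.521 by limma). The lower gene was ALAS1, the housekeeping counterpart of ALAS2, at 1175 ± 102 in PBS and 730 ± 372 in Dox (log2 difference -0.82, SE 0.35, adjusted p = 0.521 by limma). Its groups overlapped, with Dox signals of 1119, 694.2 and 377.6 in replicates 1 to 3. Without Dox replicate 3 the ALAS1 difference was -0.41. ALAD ran opposite to ALAS2 over the arrays, with r -0.618, and ALAS1 had r 0.335. The mitochondrial carrier SLC25A39 and the porphyrin transporter ABCB6 had differences of -0.55 and -0.62, with adjusted p = 0.569 and 0.622 by limma. Without Dox replicate 3 they were -0.77 and -0.23.

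Red cell membrane and skeleton genes were measured for 8 of 26, 4 above and 4 below 0, with a median of -0.07. The water channel AQP1, which is also made by endothelium, had a log2 difference of 0.33 (SE 0.14, adjusted p = 0.521 by limma), with groups that did not overlap. The AQP1 difference was 0.17 with quantile and 0.20 with cyclic loess normalization. The Rh blood group gene RHCE had a difference of -1.78, but it was in the Tag range on 5 of 6 arrays. The tropomodulin TMOD1 and the surface protein CD47, both also made outside red cells, had differences of -0.29 and -0.44, and their correlations with ALAS2 were r 0.869 and 0.801. Other genes of the list ran the other way or showed little relation to ALAS2, with r -0.383 for AQP1, -0.732 for CD59 and -0.089 for EPB41, the last 2 named after their values were seen.

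Of 15 red cell enzymes, 8 were measured, 2 above and 6 below 0, with a median of -0.32 and 0 past an unadjusted p of 0.05. BPGM, which makes the 2,3-bisphosphoglycerate that lowers the oxygen affinity of haemoglobin, had a difference of -0.31 (SE 0.22). ALDH1A1, HK1 and UBE2O had differences of -1.92 (SE 0.92), 0.32 (SE 0.18) and -0.41 (SE 0.33), with groups that overlapped. Without Dox replicate 3 these differences were -0.65, 0.18 and -0.01. That array was the lowest for 41.55% of the brighter probe sets. Correlations of the enzymes with ALAS2 ran from r -0.343 for CAT to 0.771 for PNP, both named after their values were seen. How much of the signal of this list came from red cells was not tested. Of 19 erythroid regulators, 9 were measured, 5 above and 4 below 0, with a median of 0.08 and 0 past an unadjusted p of 0.05. KLF1, the activator of adult beta-globin, was in the Tag range on 3 of 6 arrays, as was the erythropoietin receptor EPOR, and the transferrin receptor TFRC was on 4. SOX6, a repressor of embryonic globin expression, had a difference of 0.72 (SE 0.57, adjusted p = 0.673 by limma), in the Tag range on 2 of 6 arrays. EPOR and TFRC had differences of -0.53 and -0.90. LMO2, a partner of erythroid transcription factors that endothelium also makes, had a difference of -0.53 (SE 0.25, adjusted p = 0.540 by limma).

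Genes that clear haem and haemoglobin were measured for 8 of 10, and 6 were above 0, with a median of 0.60. At an unadjusted p of at most 0.05, 3 were higher and 0 lower. The haem oxygenase HMOX2 was at 218 ± 39.4 in PBS and 429 ± 87.8 in Dox (SD, n = 3), a log2 difference of 0.97 (SE 0.23, adjusted p = 0.521 by limma) with groups that did not overlap. The ferritin light chain FTL had a difference of 0.68 (SE 0.24), also without overlap. With quantile normalization the difference was 0.41 for FTL and 1.02 for HMOX2. Haptoglobin, HP, which binds free haemoglobin, had signals of 1.0, 1.3 and 0.3 in PBS, and 0.9, 84.5 and 15.9 in Dox replicates 1 to 3, in the Tag range on 4 of 6 arrays. The haptoglobin-haemoglobin receptor CD163 had a difference of 0.57 (SE 0.26, adjusted p = 0.533 by limma).

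**Figure D5:**
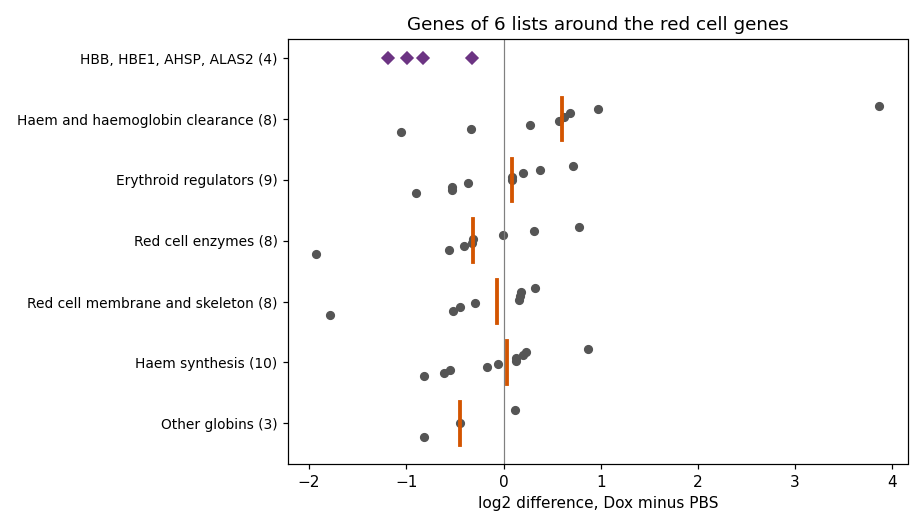
Log2 difference, Dox minus PBS, of the red cell genes (purple diamonds) and of the measured genes of 6 lists (grey points; orange bars are list medians, and the number of genes is in brackets). The red cell genes lie between -1.19 and -0.33, and the list medians lie between -0.45 and 0.60.

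Markers of other cells were set beside these values. Their median log2 differences were 0.44 for 10 of 16 leukocyte markers, -0.37 for 10 of 10 endothelial, 0.14 for 4 of 12 platelet and 0.29 for 9 of 12 cardiomyocyte markers, the last -0.04 under quantile normalization. At an unadjusted p of at most 0.05 by limma, 3 leukocyte markers and 1 cardiomyocyte marker were higher and 2 endothelial markers lower. The summed signals of 10 leukocyte markers were 61.1 to 94.3 in PBS and 121.6 to 858.4 in Dox, and S100A8, S100A9 and S100A12 carried this gap. These 3 genes summed to 12.3 to 31.1 in PBS and 69.8 to 802.7 in Dox, highest on Dox replicate 2. Every red cell gene had its lowest signal on that array, AHSP and HBE1 within the Tag range. The other 7 leukocyte markers summed to 46.6 to 63.2 in PBS and 51.8 to 69.5 in Dox, with 55.7 on Dox replicate 2. ITGB2 was the largest part of this sum on every array, at 23.8 to 41.6 in PBS and 33.1 to 39.1 in Dox. The sum therefore says little about the dimmer markers. S100A9, a neutrophil and monocyte protein, made up most of the sum of the 3 genes. Its signals were 9.2, 7.8 and 27.5 in PBS, and 56.9, 681.5 and 185.9 in Dox replicates 1 to 3. S100A12 was in the Tag range on 4 of 6 arrays, S100A8 on 2, and PTPRC, the pan-leukocyte antigen, on 5. CD2 was in that range on 5 arrays, ITGAM on 4 and CD3D on 6. ITGB2, CD2, ITGAM and CD3D were named after their values were seen. The summed signals of 10 endothelial markers were 1622 to 2437 in PBS and 1504 to 1540 in Dox, with the highest sum on PBS replicate 1. Every red cell gene and 6 of the 10 endothelial markers were highest on that array, as were 26.62% of the brighter probe sets. PBS replicate 1 also had the lowest sum of cardiomyocyte markers (40840). For platelet markers the sums were 47 to 80.5 in PBS and 53.6 to 76.6 in Dox. The integrin ITGB3 was the 1 marker of 4 that was highest on PBS replicate 1 (56.3), where the other 3 summed to 24.2, against 20.2 to 31.8 in Dox. The part of these cell types, or of the vessel content of each biopsy, in the signals of the red cell genes was not tested. The ratio of the 3' to the 5' actin probe sets, a measure of RNA integrity, was 35.1 on PBS replicate 1 and 29.6 on Dox replicate 2. On the other arrays it was 32.6 to 121, so the 3' actin signal was far above the 5' signal on every array. The same ratio for GAPDH was 1.282 on PBS replicate 1, 1.257 on Dox replicate 2 and 1.155 to 1.547 on the others. The part of RNA integrity in the signals of the red cell genes was not tested.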

How the data were processed

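RNA from LV free wall of 3 PBS and 3 Dox piglets was hybridised to 6 arrays. Samples were grouped by their titles. The deposited values are intensities, MAS5 signals that the authors computed with GCOS (version 1.4 in the submitters' processing notes). No count underlies them, and the number of arrays limits the precision. Signals of 0 (311 probe sets on some array) were raised to 0.1 and log2 was taken. In R 4.3.3, limma 3.58.1 (lmFit, eBayes with intensity trend) compared the groups over 23999 probe sets with Benjamini-Hochberg adjustment; 124 controls were left out. The prior degrees of freedom were 4.497. The fit was tested on simulated data. Gene names came from the platform's annotation (10069 have 1 symbol, 198 several, 13732 none). HBB, HBE1 and ALAS2 matched RefSeq by gene ID and AHSP by symbol only. Named were all members, up to 4 genes per list with the smallest unadjusted p, and the 10 probe sets most like HBB. KLF1 and the Tag reference were chosen after values were seen. The members and the 10 lists (149 genes) were chosen with earlier results of these data known. Alternatives were other normalizations (quantile, cyclic loess), an offset of 16, array weights, no trend, dim probe sets left out, the methods' t-test, a replicate block and leaving out arrays. Sequences were not used here. Whether the animals shared litters is not given in the sources used here. Tables and figures were made in Python 3.11.15 with pandas 2.3.3, SciPy 1.17.1 and matplotlib 3.10.9.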

Additional observations from a re-analysis of the deposited data

How the results depend on the processing

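Under 12 other settings the log2 difference stayed below 0 in 12 for HBB and for HBE1, 11 for ALAS2 and 10 for AHSP. These settings include the replicate block, which cannot change the difference in this balanced design. The size of the difference moved: HBE1 was -0.19 with the offset and -2.01 with array weights, AHSP -0.46 and -1.31, and HBB -0.18 with cyclic loess. With PBS replicate 1 and Dox replicate 2 both left out, chosen after seeing the data, the difference was -0.054 for HBB, 0.61 for HBE1, 1.14 for AHSP, 0.81 for ALAS2 and 0.83 for HBM. List medians in that setting were -0.024 for other globins, -0.11 for haem synthesis, -0.19 for red cell enzymes and 0.40 for clearance. The median of other globins was -0.20 with array weights, -0.23 with cyclic loess, -0.25 with the offset, -0.20 with quantile normalization and -0.63 without dim probe sets, and -0.52 to 0.094 with 1 array left out. Without dim probe sets, the membrane median was 0.16 and that of erythroid regulators -0.14. With 1 array left out, medians ran from -0.28 to -0.0255 for membrane genes, -0.39 to -0.048 for enzymes and 0.35 to 0.81 for clearance; enzymes with array weights gave -0.15. Probe sets called numbered 0 to 14 with 1 array left out (14 without Dox replicate 1) and 1356 without adjustment; those with groups that did not overlap numbered 5722 to 8283, since fewer arrays overlap less often. With 1 array left out, HBM ran from -1.30 to 0.094, NGB from -0.15 to 0.40, TFRC from -1.62 to 0.086, GP9 from -0.34 to 0.051, ITGA2B from -0.030 to 0.39 and ITGB3 from -0.17 to 0.53. Array weights gave -0.17 for NGB and -0.0033 for ITGB3, and quantile normalization -0.036 for PLN and -0.0145 for TNNI3; it moved the median of all probe sets from -0.10 to -0.0039. The causes were not tested. Deviations of same-numbered arrays had r -0.0056, 0.02 and -0.06, and those of the other PBS and Dox pairs -0.04 to 0.04. With 3 arrays per group, such values cannot show whether the animals were paired. The fit with the replicate block called 0. Its differences of -0.33 for HBB, -1.19 for HBE1, -0.82 for AHSP and -0.99 for ALAS2 equal the main ones by design, so nothing is read from them. HBE1, HP and RHCE were limited by dim signals.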
